A study of Mus musculus with 12 samples.

Results

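Active enhancers in the developing limb carry acetylated lysine 27 of histone H3 (H3K27ac), and in the H3K27ac ChIP-seq of mouse forelimb buds 3005 of the 19957 regions on chromosomes 1 to 19 and X were distal, called with and without WNT inhibition, and free of a β-catenin peak. They were chosen by 5 criteria read from the peak lists: a region of the DMSO consensus list under 2000 bp wide, every summit at least 1 kb from each annotated transcription start site (TSS), overlap with a region of the C59 consensus list, and no summit of the β-catenin DMSO consensus list within 1 kb. Of the 19957 regions, 19779 were under 2000 bp, 7064 of these were distal, and 5205 of those were also called after C59. A β-catenin summit lay within 1 kb of 2200 of the 5205, so that 3005 regions, 57.7% (95% Wilson interval 56.4 to 59.1%), had none. Such intervals cover counting error over regions only. Presence of H3K27ac in both conditions and absence of β-catenin are therefore what selected these regions and are not results.

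All embryos were wild-type mouse embryos at E10.5, collected 6 h after injection of C59, a small-molecule inhibitor of porcupine that stops the secretion of WNT ligands, or of the solvent DMSO as control. H3K27ac and β-catenin were each profiled in 2 biological replicates per condition, each made from pooled forelimb buds that hold mesenchyme, ectoderm and other cells together. Fewer cells of a type and less acetylation per cell cannot be told apart in such bulk samples. The peak lists give, for each summit, the fold enrichment over the coverage that the peak caller expected there. Stronger and weaker regions below are ranked by this value, which is a contrast to expected coverage and not an amount of acetylation. The lowest expected coverage of a library, which reflects its depth, was 2.69 and 2.88 fragments per base in the DMSO H3K27ac libraries and 3.17 and 2.98 in the C59 libraries. As a check of the tissue, regions were counted at genes of limb identity: Tbx5, the forelimb T-box gene, was the nearest gene of 7 regions with fold enrichments up to 4.38, whereas Tbx4, its counterpart in the hindlimb, was nearest to 9 regions with values up to 9.15, and no region was nearest to Pitx1, which specifies the hindlimb. A region nearest to a gene need not act on it. Within 1 kb of their TSSs, Tbx5 had 2 regions with values up to 2.78, Tbx4 had 1 with 4.44 and Pitx1 had 0. By library (DMSO replicates 1 and 2, then C59 replicates 1 and 2), the highest values there were 2.81, 2.67, 2.96 and 3.38 for Tbx5. For Tbx4 they were 3.25, 4.63, 3.36 and 3.52, so the ranges overlapped. By either measure the highest consensus value was larger for Tbx4 than for Tbx5, which does not follow the forelimb label, whereas the lack of regions at Pitx1 does. Why was not tested.

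H3K27ac marks nucleosomes beside active promoters and enhancers. Canonical WNT signals stabilise β-catenin, which has no DNA-binding domain and reaches cis-regulatory modules (CRMs) mainly through TCF and LEF proteins. A distal acetylated region without β-catenin can be occupied by other factors, such as SOX, homeobox or basic helix-loop-helix (E-box-binding) proteins, and its acetylation alone does not show that it acts as an enhancer.

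The sequences at 11 of these regions are printed as selected examples and do not represent all members. Each runs from 5′ to 3′ over 200 bases around the strongest summit, from RefSeq GRCm38 (mm10). The 3 members outside exons with the highest fold enrichment are named by the nearest protein-coding gene. Capitals mark the CpG dinucleotides, of which they hold 20, 20 and 24.

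Nearest Pum2, chr12:8640844-8641043, plus strand: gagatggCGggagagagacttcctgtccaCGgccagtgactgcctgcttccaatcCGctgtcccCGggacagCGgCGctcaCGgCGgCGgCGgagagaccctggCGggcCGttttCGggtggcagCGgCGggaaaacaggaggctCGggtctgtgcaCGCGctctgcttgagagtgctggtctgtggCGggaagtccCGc
Nearest Mos, chr4:3874982-3875181, plus strand: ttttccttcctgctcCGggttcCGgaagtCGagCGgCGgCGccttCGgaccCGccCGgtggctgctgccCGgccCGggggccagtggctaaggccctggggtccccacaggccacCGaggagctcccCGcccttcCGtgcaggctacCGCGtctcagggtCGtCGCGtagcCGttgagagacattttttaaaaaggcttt
Nearest Zfp869, chr8:69716640-69716839, plus strand: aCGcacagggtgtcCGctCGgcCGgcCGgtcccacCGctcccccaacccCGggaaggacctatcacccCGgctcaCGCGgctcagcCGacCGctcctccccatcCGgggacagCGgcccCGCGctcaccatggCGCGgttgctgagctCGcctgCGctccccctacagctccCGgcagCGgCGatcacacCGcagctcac

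The next 3 are examples and not a count, chosen among members within 500 kb of the limb signalling genes examined below, or leading a gene list. All 3 lie outside exons and hold a TCF/LEF word, ATCAAAG or TTCAAAG on either strand, within 100 bases of the summit. They show that the word can occur at a site without β-catenin, and capitals mark it.

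Nearest Sox5, chr6:144181192-144181391, plus strand: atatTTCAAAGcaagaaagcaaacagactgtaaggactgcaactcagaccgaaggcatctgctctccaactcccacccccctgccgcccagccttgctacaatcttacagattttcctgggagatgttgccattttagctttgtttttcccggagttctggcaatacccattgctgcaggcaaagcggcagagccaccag
Nearest Sulf1, chr1:12577281-12577480, plus strand: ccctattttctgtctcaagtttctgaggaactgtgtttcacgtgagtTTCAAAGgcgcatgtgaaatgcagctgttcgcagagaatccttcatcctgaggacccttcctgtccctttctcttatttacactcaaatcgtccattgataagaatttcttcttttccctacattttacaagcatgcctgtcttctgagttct
Nearest Meis2, chr2:116020970-116021169, plus strand: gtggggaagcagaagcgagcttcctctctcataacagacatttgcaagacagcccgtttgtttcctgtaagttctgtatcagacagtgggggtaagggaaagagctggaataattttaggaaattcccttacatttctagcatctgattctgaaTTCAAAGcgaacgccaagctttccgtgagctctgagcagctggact

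The next 3 members are also examples, picked from the same members among those with a SOX word within 100 bases of the summit. Capitals mark the SOX words ACAATG or ACAAAG, the most frequent of the 18 motifs searched. The region near Gli2 holds the word on both strands, separated by 4 bases.

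Nearest Krt8, chr15:101984123-101984322, plus strand: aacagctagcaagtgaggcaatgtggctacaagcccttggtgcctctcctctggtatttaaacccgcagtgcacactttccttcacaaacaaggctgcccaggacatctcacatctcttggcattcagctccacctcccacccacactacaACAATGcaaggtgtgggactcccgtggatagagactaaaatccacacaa
Nearest Gli2, chr1:119047914-119048113, plus strand: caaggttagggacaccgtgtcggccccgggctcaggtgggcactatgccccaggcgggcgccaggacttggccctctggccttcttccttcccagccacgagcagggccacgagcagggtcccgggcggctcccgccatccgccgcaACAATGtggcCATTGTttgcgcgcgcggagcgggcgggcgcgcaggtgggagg
Nearest Sox9, chr11:112870460-112870659, plus strand: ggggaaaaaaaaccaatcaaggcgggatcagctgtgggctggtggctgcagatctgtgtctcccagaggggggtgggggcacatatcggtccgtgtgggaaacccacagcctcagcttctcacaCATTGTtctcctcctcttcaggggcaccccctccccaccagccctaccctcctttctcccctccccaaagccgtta

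The last 2 lie in introns of Firre, a non-coding gene on the X chromosome that is known for internal repeats. They were selected after their values were seen, because the 6 members in Firre resemble each other, and capitals mark the E-box CAGCTG.

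Firre intron, the strongest, chrX:50612005-50612204, plus strand: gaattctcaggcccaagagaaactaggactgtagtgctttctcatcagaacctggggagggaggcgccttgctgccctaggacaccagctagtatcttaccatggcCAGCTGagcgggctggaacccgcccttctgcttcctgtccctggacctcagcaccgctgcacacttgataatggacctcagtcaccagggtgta
Firre intron, the second strongest, chrX:50602663-50602862, plus strand: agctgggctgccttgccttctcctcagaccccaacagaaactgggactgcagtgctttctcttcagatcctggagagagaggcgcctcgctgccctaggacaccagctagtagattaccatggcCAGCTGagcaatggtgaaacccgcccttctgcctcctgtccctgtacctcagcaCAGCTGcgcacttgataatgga

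In the DMSO consensus list the fold enrichment of the members ranged from 1.64 to 37.1 with a median of 5.04 (95% interval of the median 4.94 to 5.09). Distal regions with β-catenin had a median of 4.99 (4.91 to 5.07), and promoter regions without β-catenin, which number 9937, had a median of 10.52. The intervals of the 2 distal sets overlapped. As coverage over the library background, described under processing, members lay lower than distal regions with β-catenin in each library. Their log2 medians were 3.16 and 3.12 in DMSO and 3.09 and 3.01 after C59, against 3.33, 3.38, 3.38 and 3.28 with β-catenin. The members were narrower than distal regions with β-catenin, with a median width of 664 bp (647 to 680 bp) against 781 bp (749 to 807 bp), although the rule had set the same upper limit for both. A single summit was called in 1936 members, 2 summits in 853 and 3 or more in 216. Neighbouring summits within a member lay a median of 332 bp apart.

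The limits of the selection cut through a continuum. The widest member spanned 1979 bp near A930004D18Rik with a fold enrichment of 5.66, and the narrowest region past the limit spanned 2043 bp near Synpo with 5.04. A member near Snx8 lay 1001 bp from a TSS with a fold enrichment of 5.30, and a region near Zfp78 was left out at 994 bp with 8.49. The member closest to β-catenin, near Pcdh10, was 1015 bp away and had a fold enrichment of 5.08, whereas a region near Alox5ap at 1000 bp, with 3.09, counted as having β-catenin.

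Nearly every member was also called in each replicate. A summit lay inside 3004 of the 3005 members in either DMSO replicate, in 2981 in C59 replicate 1 and in 2973 in C59 replicate 2, and a consensus summit was itself required to lie in peaks of both replicates of its condition. The median fold enrichment of members was 4.79 in DMSO replicate 1, 4.81 in DMSO replicate 2, 4.91 in C59 replicate 1 and 4.75 in C59 replicate 2. The 2 C59 medians lay on either side of the 2 DMSO medians, so the conditions overlapped.

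**Figure D1:**
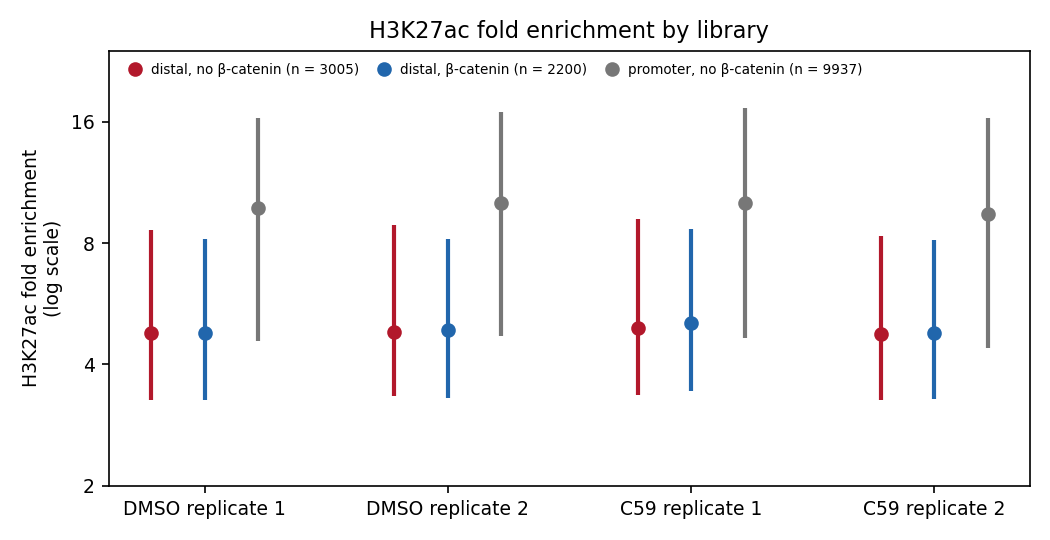
Median H3K27ac fold enrichment (points) with the 10th to 90th percentile of regions (bars) in each of the 4 libraries, on a log scale. On this scale, distal regions without and with β-catenin lie close together in every library, between 4.75 and 5.05, and promoter regions without β-catenin lie higher.

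Over the 2957 members with a summit in all 4 libraries, the median log2 fold enrichment averaged 2.27 in DMSO controls and 2.28 after C59. The difference on the log2 scale was 0.00 (exact two-sided permutation test over the 6 splits of 4 libraries, p = 1, with n = 2 per condition). Such a test cannot give a p below 0.33. Across members, which are not independent and share library and depth, log2 fold enrichments correlated with r = 0.86 between DMSO replicates, 0.86 between C59 replicates and 0.83 between conditions. Between single libraries, the median absolute log2 difference over members was 0.19 for the DMSO replicates and 0.20 for the C59 replicates, and from 0.21 to 0.22 for the 4 pairs of a DMSO with a C59 library. Libraries of different conditions thus lay slightly further apart than replicates, with no shift of the median fold enrichment in either direction. This depended on the scaling. As log2 coverage over the library background, the medians were 3.16 and 3.12 in DMSO and 3.09 and 3.01 after C59, so both C59 medians lay lower.

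The members were also sorted by whether both C59 values lay outside both DMSO values. Both were lower in 578 members, 19.5% of 2957, beside 19.4% over all 17319 DMSO regions with a summit in the 4 libraries. Both were higher in 609 members, 20.6%, beside 20.8% over all regions. Both shares were close to those of all regions, and the conditions overlapped in 1770 members. Scaling by coverage over the library background instead gave 887 lower and 486 higher of 2949 members, and 36.1% lower and 12.4% higher over all regions. The direction of this split therefore depended on the scaling, and a difference of at least 0.5 on the log2 scale was seen in 167 members, 5.65%, beside 5.33% of distal regions with β-catenin and 3.35% of all regions.

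**Figure D2:**
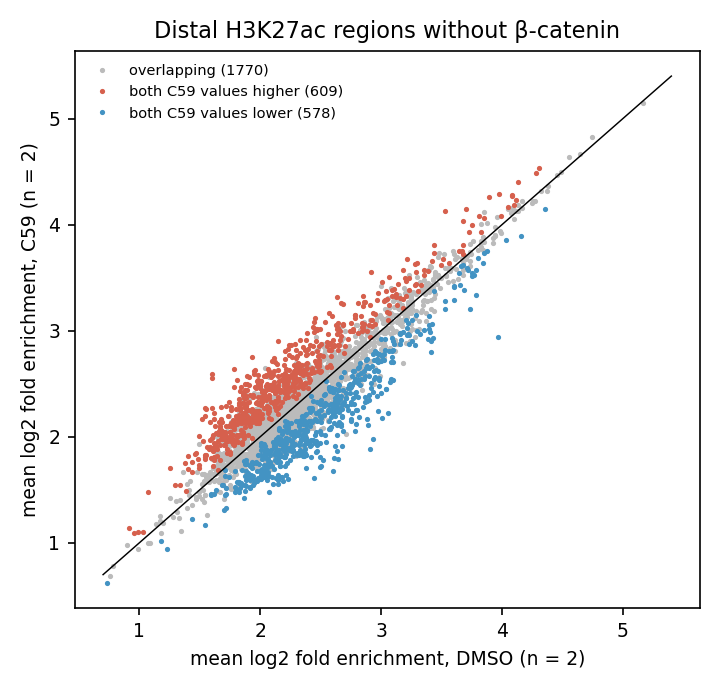
Mean log2 H3K27ac fold enrichment after C59 (n = 2) against that in DMSO controls (n = 2) for the 2957 members with a summit in all 4 libraries, with the line of equal values. Members whose 2 C59 values lie above (609) or below (578) both DMSO values flank the line in similar numbers.

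In the distal regions with β-catenin, which were selected from the same libraries, 328 of 2158 were lower (15.2%) and 507 were higher (23.5%) after C59. The gap between the 2 sets was compared per library as the median log2 fold enrichment of members minus that of regions with β-catenin. It was 0.01 and -0.01 in the DMSO replicates and -0.04 and -0.02 in the C59 replicates. The C59 gaps lay below both DMSO gaps, by a mean of 0.03 on the log2 scale, and the exact permutation test gave p = 0.33, the smallest it allows. A difference in response between distal regions with and without β-catenin was therefore not established.

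The members with the largest decrease among those without overlap lay near Dynlt1b, Stk25, Prmt5, Boc, Kctd2, Ins2, Sik1 and Zfhx3. They were selected by this contrast, so their values are a description. In an intron of Boc, which encodes a co-receptor for hedgehog ligands, a member at chr16:44530670-44531699 had fold enrichments of 5.69 and 6.44 in DMSO controls and of 2.70 and 3.78 after C59. Its log2 difference was -0.92, and it was -0.67 when summits were averaged and -1.45 as coverage over the library background. The member near Dynlt1b, a dynein light chain gene, had 15.1 and 16.1 in DMSO controls and 9.35 and 6.29 after C59, a log2 difference of -1.02. Near Stk25, a kinase gene, the values were 6.32 and 8.89 in DMSO controls and 3.84 and 3.56 after C59, which also gives -1.02. The C59 values lay below the DMSO values at each of these sites, and the other 5 differed by -0.96 to -0.83. Without DMSO replicate 1 the difference near Sik1 was -0.51 in place of -0.83.

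The largest increases lay near Col14a1, Tmem135, Abca13, Hs6st1, Plin1, Nedd4l, Slc41a2 and Tgfbr3, selected in the same way. In an intron of Col14a1, a fibril-associated collagen gene, the member at chr15:55457510-55457955 had 2.98 and 3.09 in DMSO controls and 7.19 and 5.03 after C59, a log2 difference of 0.99. The member in an intron of Tgfbr3, the TGF-beta co-receptor betaglycan, had 2.57 and 3.35 in DMSO controls and 4.49 and 5.11 after C59, a difference of 0.71, or of 0.47 as coverage over the library background. Near Hs6st1, which encodes a heparan sulfate sulfotransferase, the values were 3.38 and 4.33 in DMSO controls and 5.96 and 7.61 after C59, a difference of 0.82. All 8 started from DMSO values at or below 5.15. Of the 2957 members, 2 fell to a log2 difference under -1 and 0 rose above 1, beside 6 and 1 of all 17319 regions with a summit in the 4 libraries.

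The 12 members with the highest DMSO consensus fold enrichments, from 21.1 to 37.1, lay nearest to Pum2, Mos, Zfp869, Irf2, Gm21119, Tmem44, Pls3, Pogz, Chd7, Fer, Tmem29 and Smad2. The strongest, 33.2 kb from Pum2, a translational repressor gene, had fold enrichments of 37.3 and 34.6 in DMSO controls and of 35.8 and 35.0 after C59. Near Mos, a kinase gene of the germ line, the values were 25.8 and 27.9 in DMSO controls and 29.9 and 27 after C59. The member 43.0 kb from Chd7, a chromatin remodeller gene, had 19.9 and 21.7 in DMSO controls and 18.8 and 22.6 after C59. The conditions overlapped in 10 of the 12, beside 59.8% of all regions. The exceptions were the member near Fer, a tyrosine kinase gene, with 20.1 and 20.9 in DMSO controls and 17.5 and 17.9 after C59, and that near Tmem29, with 19.9 and 19.6 against 22.4 and 23.8. The nearest β-catenin summit was from 10.3 to 396 kb away from these 12 members. No blacklist of artefact-prone regions was applied here, although the study used one, and whether any of the 12 lies in such a region was not tested.

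Of the 12, 10 were intergenic and 10 were CpG-rich, defined here as a GC content above 50% and a ratio of observed to expected CpG above 0.6 in the 400 bp around the strongest summit. A TCF/LEF word was present in 1 of them. CpG-rich windows are typical of promoters. Of the 11 strongest members that could be compared with RefSeq starts, which excludes chromosome 18, 2 lay within 1 kb of a RefSeq TSS that the GENCODE set used for the selection does not hold within that distance.

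Fold enrichment and base composition moved together across the members. CpG-rich windows made up 5.14% of members with a fold enrichment under 4 (36 of 700), 9.47% between 5 and 7, 35.3% between 10 and 15 (65 of 184) and 66.1% at 15 or above (37 of 56, Wilson interval 53.0 to 77.1%). The SP/KLF word GGGCGG, recognised by zinc finger factors of CpG-rich promoters, rose from 19% to 57.1% over the same range, and the ETS word CCGGAA from 8% to 25%. The TCF/LEF words went from 9.14% to 7.14%, with the highest share, 12.6%, between 5 and 7. Over all 3005 members 340 were CpG-rich, 11.3% (10.2 to 12.5%), against 6.36% of distal regions with β-catenin, a difference of 4.95 percentage points (95% Newcombe interval 3.41 to 6.46), and 79.7% of promoter regions without β-catenin. Within 1 kb of a RefSeq TSS lay 32 of 331 CpG-rich members (9.67%) and 96 of 2583 others (3.72%).

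The share of distal regions that lacked β-catenin was 57.5% (54.7 to 60.2%) below a fold enrichment of 4, 55.5% (53.0 to 58.0%) between 5 and 7, 65.2% (59.5 to 70.6%) between 10 and 15 and 68.3% (57.6 to 77.4%) at 15 or above. The interval between 10 and 15 lay above that between 5 and 7. By chromosome the share without β-catenin ranged from 48.2% on chromosome 3 to 69.5% on chromosome 11 and 70.9% on the X chromosome, where 83 members stood beside 34 regions with β-catenin.

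**Figure D3:**
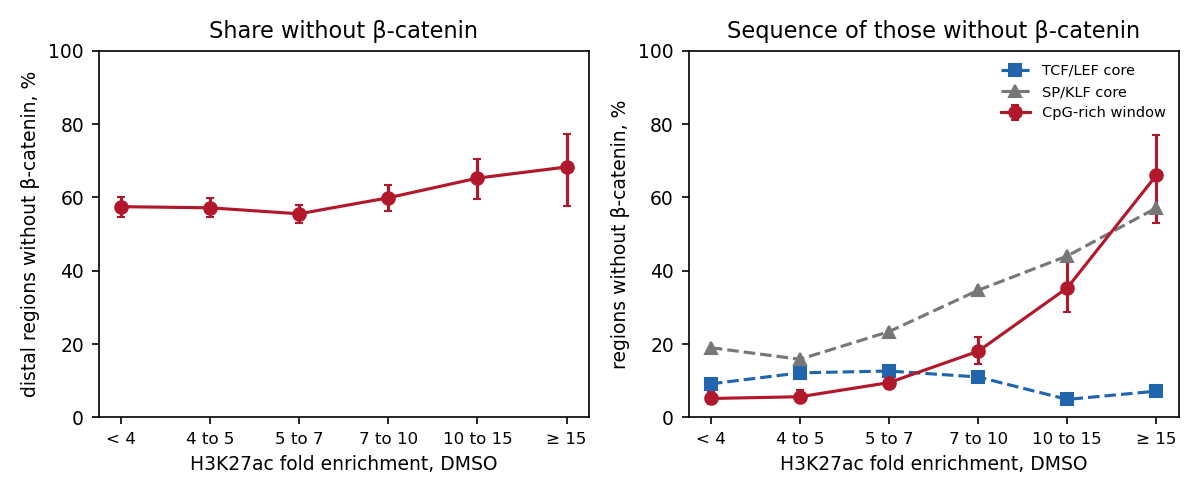
Left, share of distal H3K27ac regions without β-catenin, and right, share of those regions with a CpG-rich window, a TCF/LEF word or an SP/KLF word, by DMSO consensus fold enrichment. Bars are 95% Wilson intervals, and the CpG-rich share rises from 5.14% to 66.1%.

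The members lay nearer to annotated TSSs, of coding and non-coding transcripts together, than distal regions with β-catenin did. Intergenic positions held 1400 members (46.6%), introns of protein-coding genes 1193 (39.7%), exons 218 (7.25%) and introns of non-coding genes 194 (6.46%), by the strongest summit. Exons held more of the members than of the distal regions with β-catenin, by 2.71 percentage points (1.42 to 3.97), whereas the share in introns of protein-coding genes differed by -0.62 points (-3.31 to 2.07) and the intergenic share by -2.32 points (-5.06 to 0.43). The median distance to the nearest TSS was 10.6 kb (9.99 to 11.2 kb), against 16.6 kb (15.3 to 17.5 kb) with β-catenin. Within 10 kb of a TSS lay 48.3% of members and 35.3% of regions with β-catenin, a difference of 13.0 points (10.3 to 15.6), and within 50 kb 92.2% and 84.1%.

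β-catenin peaks were frequent in the wider surroundings of members. A summit of the β-catenin DMSO consensus list lay within 10 kb of 537 members (17.9%), within 50 kb of 1763 (58.7%) and within 100 kb of 2316 (77.1%). For promoter regions without β-catenin, which passed the same 1 kb limit, these shares were 8.66%, 38.8% and 60.6%. The difference was 9.21 points at 10 kb (7.76 to 10.7), 19.9 points at 50 kb (17.9 to 21.9) and 16.5 points at 100 kb (14.7 to 18.3). The median distance from a member to β-catenin was 36.4 kb, against 72.9 kb for promoter regions without it.

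**Figure D4:**
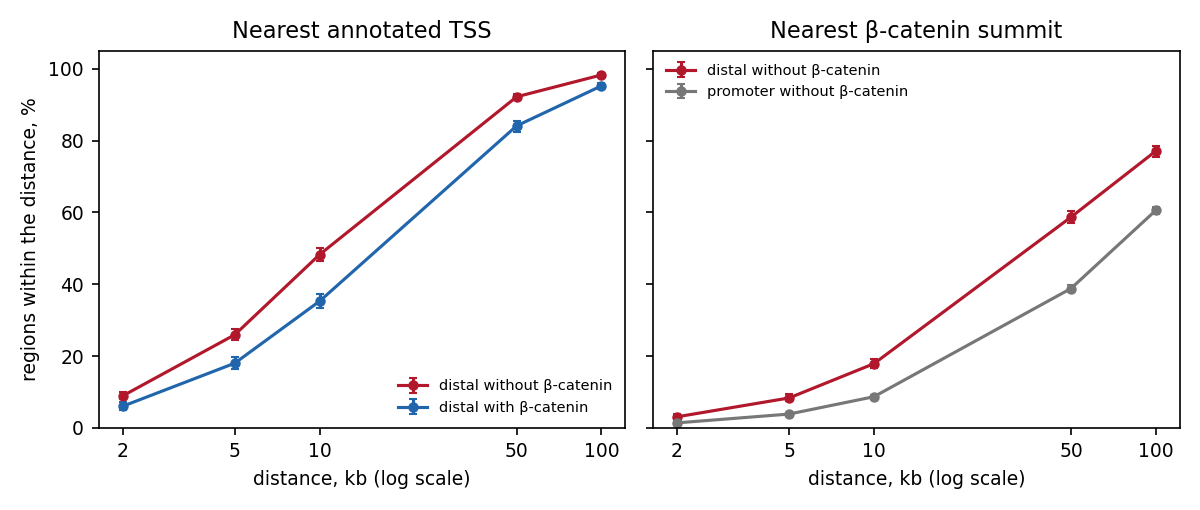
Share of regions whose strongest summit lies within a given distance of a TSS (left) and share of regions within a given distance of a β-catenin DMSO consensus summit (right), on a log axis in kb, with 95% Wilson intervals. The members (red) reach 48.3% at 10 kb from a TSS against 35.3% for distal regions with β-catenin, and 17.9% at 10 kb from β-catenin against 8.66% for promoter regions.

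The sequence under the summits, which the selection did not use, differed from that of distal regions with β-catenin. The median GC content of the 400 bp around the strongest summit was 53.0% (52.8 to 53.2%), against 49.8% (49.5 to 50.2%) with β-catenin and 66% in promoter regions without β-catenin. A TCF/LEF word was present in 10.9% of members (327), in 17.6% of distal regions with β-catenin and in 8.51% of all DMSO regions. The members thus held it less often than distal regions with β-catenin, by 6.75 points (-8.72 to -4.83 as the signed difference). In windows 5 kb to either side of the members the share was 14.3%, so the word was also less frequent at the summits than in the flanks, by 3.41 points (-4.81 to -1.96). The flanks were not matched for base composition.

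Other AT-rich words followed the same order. The homeobox word TAATTA was present in 5.62% of members against 9.27% of distal regions with β-catenin, a difference of -3.65 points (-5.15 to -2.21). For the posterior HOX word CATAAA the shares were 14.6% and 20.6% (-6.06 points, -8.18 to -3.96), and for the GATA words AGATAA or TGATAA 18.97% and 24.3% (-5.30 points, -7.59 to -3.04). The SP/KLF word GGGCGG was present in 23.9% and 15.1% (8.76 points, 6.60 to 10.9) and the ETS word CCGGAA in 10.52% and 7.77% (2.74 points, 1.16 to 4.30). Over all DMSO regions the latter 2 reached 49.2% and 20.2%.

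Since GC content differed, the shares were also compared within 3 ranges of it, an alternative added after the data were seen. The TCF/LEF words were found in 16.5% of 291 members and 19.5% of 503 distal regions with β-catenin under 45% GC, a difference of -2.99 points (-8.30 to 2.71). Between 45 and 55% GC the shares were 13.4% of 1580 and 18.8% of 1196, -5.46 points (-8.26 to -2.70), and from 55% GC they were 6.00% of 1134 and 13.0% of 501, -6.98 points (-10.4 to -3.90). The interval excluded 0 in the upper 2 ranges. For the GATA words the interval included 0 in each range, from -2.83 points (-9.66 to 4.19) under 45% GC to -1.12 points (-4.27 to 1.99) between 45 and 55%. The SOX words were more frequent in members under 45% GC, at 77.7% against 65.2% (12.5 points, 5.93 to 18.6), and between 45 and 55%, at 63.2% against 57.7% (5.54 points, 1.87 to 9.20), and differed by 2.22 points (-3.03 to 7.42) from 55% GC. The other differences shrank within these ranges. For the ETS word the interval included 0 in each range, with 1.74, 1.73 and -0.20 points from low to high GC. The SP/KLF word differed by 1.38 (-1.49 to 4.83), 2.86 (0.44 to 5.22) and 5.39 points (0.20 to 10.46), and the homeobox word by -3.53 (-8.31 to 1.66), -2.11 (-4.18 to -0.13) and -1.43 points (-3.67 to 0.33). For the posterior HOX word the differences were -1.03 (-7.56 to 5.74), -3.08 (-6.05 to -0.17) and -3.70 points (-6.98 to -0.80).

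SOX words were the most frequent of the 18 motifs, present in 58.7% of members, in 43.7% of their flanks and in 37.4% of all DMSO regions. The excess over the flanks was 15.04 points (12.9 to 17.2). Without regard to GC content the share in distal regions with β-catenin was 56.6%, with a difference of 2.11 points (-0.60 to 4.83). The E-box CAGCTG, bound by basic helix-loop-helix factors such as those of the myogenic family, was present in 30.5% of members, 18.2% of their flanks and 30.3% of distal regions with β-catenin. Its excess over the flanks was 12.3 points (10.4 to 14.2), and its difference from regions with β-catenin was 0.24 points (-2.29 to 2.76). The TEAD word GGAATG was in 23.1% of members and 20.1% of flanks, the E-box CATCTG in 30.7% and 29.3%, and the GLI word GGGTGGTC in 0.90% and 0.83%. The SOX word ACAAAG and the TCF/LEF words end in the same letters but differ in the base before them, so 1 match cannot count for both. Only ATCAAAG and TTCAAAG were searched as TCF/LEF words, and other forms were not counted. Which proteins bind at matches to either class was not tested.

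**Figure D5:**
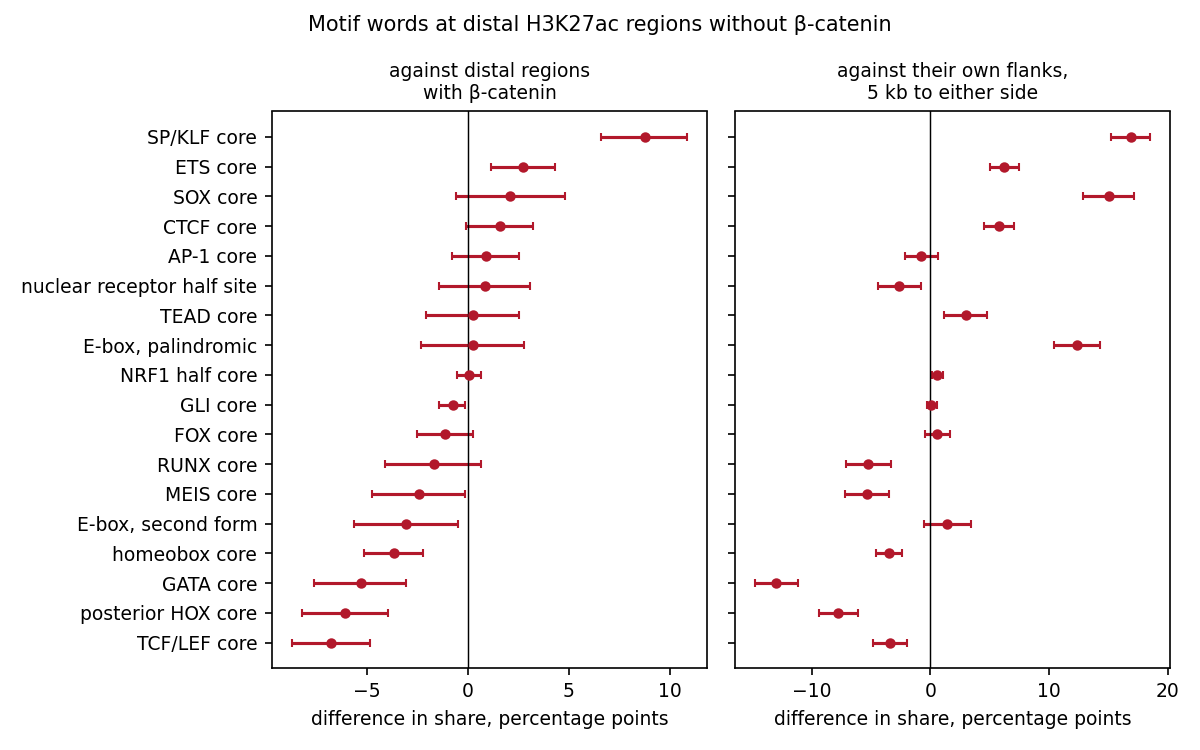
Difference in the share of members with each of 18 motif words in the 400 bp around the strongest summit, in percentage points, against distal regions with β-catenin (left) and against windows 5 kb to either side of the members (right), with 95% Newcombe intervals. The TCF/LEF core lies lowest on the left at -6.75 points, and the SP/KLF and SOX cores lie highest on the right at 16.9 and 15.04 points.

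The 3005 members were spread over 2179 nearest protein-coding genes, 1646 of which had 1 member. Of these genes, 537 (24.6%) were also nearest to a distal region with β-catenin, which is 38.5% of the 1394 genes nearest to such regions, and 969 members (32.2%) lay nearest to one of the 537. A nearest gene is a position and does not show which gene a region acts on. Joined over gaps of up to 20 kb, the members formed 2635 loci, 300 of which held 2 or more members and 13 of which held 4 or more.

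Bcor, Tns1 and Zfp36l1 were nearest to 8 members each, Olfr1324, Smad7 and Zmiz1 to 7, and Atp23, Maml3, Mrpl23, Rbms3, Sox4 and Zfp423 to 6. For Bcor, a Polycomb-associated corepressor gene on the X chromosome, the 8 members had DMSO consensus fold enrichments from 3.64 to 10.9 and lay 8.04 to 273 kb from its TSSs, beside 4 regions with β-catenin. For Smad7, an inhibitor of TGF-beta and BMP signalling, 7 members with values from 3.78 to 11.1 stood beside 4 regions with β-catenin. The strongest of them had 11.5 and 10.7 in DMSO controls and 11 and 12.1 after C59. Near Sox4, a SOX factor gene of progenitor cells, 6 members ranged from 3.601 to 14.7 and lay 160 to 318 kb away. The strongest of these had 13.4 and 13.6 in DMSO controls and 10.7 and 12.2 after C59, so that both C59 values lay lower. The locus with the most members was at Zfp36l1, which encodes a factor of mRNA decay: 7 members lay within 104 kb at chr12:79890698-79994264, partly inside the non-coding gene 9430078K24Rik, with fold enrichments from 2.95 to 8.15.

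The members assigned to Olfr1324, an olfactory receptor gene over 100 kb away, were mostly in Firre. It held 6 members within 17.6 kb at chrX:50599967-50617520, with fold enrichments from 4.42 to 13.5. Their summits were spaced by 2624, 2684, 6658, 2669 and 2611 bp. The strongest had 13.1 and 13.0 in DMSO controls and 13.1 and 12.9 after C59, and the next 9.44 and 9.01 against 8.59 and 8.56. All 6 held the E-box CAGCTG in the 400 bp around the summit and 0 held a TCF/LEF word. Pairs of these windows shared unbroken runs of 26 to 116 bases (median 53 over 15 pairs), as the 2 sequences printed above show over much of their length. At the other locus of 6 members, around Mrpl23, 3 members lay in the non-coding gene Nctc1, 1 in an intron of Mrpl23 and 2 between genes. There such runs were 8 to 12 bases long, and fold enrichments were from 2.51 to 4.71. Reads that fit several places equally were removed by the mapping quality limit, but copies of a repeat that differ from the reference can still exchange reads, which was not tested.

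Members were also counted around 9 genes of limb signalling, 500 kb to either side of their TSSs. Grem1, the BMP antagonist, Bmp4 and Shh had 0 members, beside 1, 2 and 0 distal regions with β-catenin. Their windows held 9, 12 and 3 H3K27ac regions of any kind. The counts of members and of regions with β-catenin cover only distal H3K27ac regions under 2000 bp also called after C59. They are not counts of β-catenin peaks, which the paper reports at limb enhancers of Grem1, Bmp4 and Shh in control buds. Axin2, a direct target and feedback inhibitor of WNT signalling, had 2 members and 5 regions with β-catenin, and neither member was nearest to Axin2. The stronger, near Rgs9 and 369 kb from Axin2, had fold enrichments of 7.86 and 8.50 in DMSO controls and of 8.39 and 10.1 after C59. The weaker, in an intron of Gna13, had 4.08 and 5.24 against 3.80 and 3.64, both lower. Sox9, the master regulator of cartilage, had 2 members and 5 regions with β-catenin. The stronger, 88.3 kb away at chr11:112870057-112870747, had fold enrichments of 4.91 and 6.14 in DMSO controls and of 5.93 and 4.78 after C59. The other, 143 kb away, had 4.34 and 5.14 against 6.71 and 4.22. The conditions overlapped at both.

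Fgf8, the FGF ligand of the apical ectodermal ridge, had 3 members and 1 region with β-catenin, and the member in an intron of its neighbour Fbxw4, 135 kb away, had 4.23 and 3.48 in DMSO controls and 3.97 and 5.04 after C59. The strongest of the 3, nearest Btrc, had 6.24 and 4.45 against 5.49 and 5.03. The weakest, in an intron of Ldb1 and 299 kb away, had 2.25 and 2.28 against 2.16 and 1.90, both lower. Bmp2 had 1 member, 206 kb away, with 4.00 and 3.69 against 3.55 and 4.10. Sulf1, which encodes an extracellular heparan sulfate sulfatase, had 1 member, the 1 with the TCF/LEF word printed above, with 5.34 and 6.28 in DMSO controls and 6.56 and 5.22 after C59. Sfrp2, a secreted modulator of WNT signalling, had 5 members and 1 region with β-catenin. The strongest of these 5 lay in an intron of Trim2, 462 kb away, with 10.6 and 8.59 in DMSO controls and 9.87 and 9.40 after C59, and the next in an intron of Mnd1 with 7.72 and 8.65 against 7.77 and 8.03. Of the 5, the member 17.3 kb from Sfrp2 had 5.31 and 4.55 in DMSO controls and 6.20 and 5.59 after C59, both higher.

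By nearest gene, the members were counted over 11 lists that were set with earlier results of these data known. The list of 40 limb bud mesenchyme genes had 29 members (0.97%) over 20 of its genes, beside 32 distal regions with β-catenin (1.45%). Meis1, a TALE homeobox gene of the proximal limb, led with 4 members and 1 region with β-catenin, and its strongest member had 7.26 and 7.30 in DMSO controls and 7.51 and 6.73 after C59. The median DMSO fold enrichment of the list was 4.01, below the 5.04 of all members. Of the 29, 4 were lower and 10 higher after C59 without overlap, beside 19.4% lower and 20.8% higher over all regions. The 18 genes of the cartilage program had 19 members and 20 regions with β-catenin, led by Sox5 with 5 and Sox6 with 4, which encode cofactors of SOX9. The strongest member in Sox5 had 7.19 and 6.60 in DMSO controls and 5.56 and 6.11 after C59, both lower.

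The 47 genes of the WNT pathway had 25 members (0.83%) and 48 distal regions with β-catenin (2.18%). Tcf7l1, a TCF factor that acts mainly as a repressor, had 4 members beside 3 regions with β-catenin, and its strongest had 7.37 and 7.37 in DMSO controls and 7.58 and 5.80 after C59. Wnt7b, an ectodermal WNT ligand gene, had 3 members and 0 regions with β-catenin. Its strongest, 52.5 kb away, had 16.7 and 18.5 in DMSO controls and 21.02 and 21.2 after C59, both higher. Dkk3, a member of the Dickkopf family, had 2 members, the stronger with 4.01 and 4.16 against 5.33 and 4.96. Fzd2, a WNT receptor gene, had 2 members and 1 region with β-catenin. Of the 25 members of this list, 4 were lower and 7 higher after C59 without overlap, beside the same 19.4% and 20.8%, and the median log2 difference was 0.12, beside 0.01 over all members.

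The 30 genes of BMP and TGF-beta signalling had 30 members (1.00%) and 21 regions with β-catenin (0.95%). After Smad7 came Tgfbr3 with 4, and the signal transducer Smad3 and the inhibitor Smad6 with 3 each, and Smad3 had 0 regions with β-catenin. Its strongest member had 6.20 and 6.32 in DMSO controls and 6.72 and 5.43 after C59. The 20 genes of the FGF pathway had 11 members and 15 regions with β-catenin. Fgfr2, the receptor through which the limb ectoderm answers FGF10, had 3 members and 0 regions with β-catenin, and its strongest, in an intron, had 5.56 and 4.81 in DMSO controls and 3.53 and 3.86 after C59, both lower. The 12 hedgehog genes had 11 members and 16 regions with β-catenin. Gli2, a transcription factor of the pathway, had 3 of each, its strongest member with 8.21 and 9.89 against 8.39 and 9.58. Among the 30, 9 and 10 members of these 3 lists with a summit in all 4 libraries, 7, 2 and 2 were lower and 6, 3 and 1 higher, beside 19.4% and 20.8% over all regions.

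Members also lay near genes of other cell types that a limb bud holds. The endothelial list of 23 genes had 14 members and 19 regions with β-catenin. Mef2c had 3 members and 0 with β-catenin, and its strongest, 78.0 kb away in the non-coding gene C130071C03Rik, had 15.99 and 17.9 in DMSO controls and 17.1 and 18.6 after C59. The 29 genes of ectoderm and apical ridge had 8 members and 5 regions with β-catenin. Among them, Krt8, a keratin gene of simple epithelia, had 2 members, the stronger with 12.4 and 10.6 against 14.4 and 12.05, and the epithelial adhesion gene Epcam had 1 with 12.7 and 12.8 against 13.5 and 13.0. The 20 blood genes had 6 members, among them 1 near the erythroid factor Klf1 with 5.17 and 6.10 against 6.87 and 6.15. The Klf1 member lay in an exon, 1015 bp from a TSS. At the strongest members near Runx1, Alas2 and Slc4a1 the conditions overlapped. The 14 genes of muscle precursors had 2 members, and the 12 of neural crest and the Schwann lineage had 2, near Sox10 and Ngfr. Of the 14 endothelial members, 4 were lower and 2 higher after C59 without overlap, with a median log2 difference of -0.15. Of the 7 ectoderm members with a summit in all 4 libraries, 1 was lower and 1 higher. Of the 6 blood members 1 was lower and 2 higher. The muscle list had 0 lower and 1 higher, and the neural crest list 1 of each. Over all regions 19.4% were lower and 20.8% higher. From which cells the acetylation at these sites came was not tested.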

How the data were processed

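The 8 replicate and 4 consensus peak lists of H3K27ac and β-catenin ChIP-seq were used, and the 4 inputs were not used here. Before deposition the authors used Cutadapt for trimming, Bowtie2 2.4.5 for mapping to mm10, a mapping quality limit of 30 and macs2 2.2.7.1 for peaks, without input. Consensus lists came from duplicate-free replicates sampled to equal size, called together and restricted to summits in peaks of both replicates. The deposited values are the fold enrichment of each summit and its p-value and q-value on the −log10 scale. The fold enrichment was read as coverage plus 1 over expected coverage plus 1. Coverage and expected coverage were not in the lists and were solved from the fold enrichment and p-value. Summits with a −log10 p-value above 250 were left out of that step. Coverage over the library background is the solved coverage over the lowest expected coverage of the library. Only called summits are listed, so a change below the calling threshold is not seen. A member took, per library, the highest fold enrichment of the summits inside it. TSSs were the 130588 start positions of GENCODE M21 transcripts. Members and lists were chosen with earlier results of these data known. The genes named are those of the 12 strongest members, the 12 genes nearest to most members, 9 limb signalling genes, the 8 largest differences in each direction without overlap and the leading genes of each list. Medians carry order-statistic intervals, shares Wilson and differences Newcombe intervals at 95%. Functions were tested on simulated data. The tools were samtools 1.23.1, pysam 0.24.0, scipy 1.17.1 and Python 3.11.15.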

Additional observations from a re-analysis of the deposited data

Results flagged for a closer look

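Single β-catenin replicates held peaks that the consensus list, on which the selection rests, does not. A summit of the β-catenin DMSO replicate 1 list lay within 1 kb of 269 of the 3005 distal H3K27ac regions without consensus β-catenin (8.95%, Wilson interval 7.98 to 10.03%), and a summit of replicate 2 within 1 kb of 557 (18.5%, 17.2 to 19.96%). In the lists from C59-treated embryos, 1 region had such a summit in each replicate list and 1 in the C59 consensus list. The latter lies in an intron of Copg2, 62.8 kb from Mest, at chr6:30804533-30805058. At least 1 DMSO replicate had a summit near 798 members (26.6%), both near 28, and 2207 (73.4%) had neither. For promoter regions without consensus β-catenin, 31.7% had a summit of either replicate nearby. The replicate lists held 20203 and 25836 summits in DMSO and 330 and 358 after C59, and whether these replicate-only peaks are binding was not tested.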

How the results depend on the processing

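The number of members stayed within 1.5 times of 3005 under each of the 8 planned limits and under RefSeq starts, an alternative added after the data were seen. The difference of medians between C59 and DMSO was 0.00 on the log2 scale. It turned to -0.086 with coverage over library background, where both C59 medians lay below both DMSO medians. With the consensus lists it was -0.013, and leaving out 1 replicate gave -0.022 (without C59 replicate 1) to 0.027. With the replicate block it was 0.01, with both same-numbered differences down in 808 members and up in 842. Same-numbered replicates did not deviate together (r = -0.00 over 2957 members), so the numbers give no pairing. The count of members lower after C59 moved from 578 to 887 with coverage over library background, and the counts without 1 replicate, for which non-overlap is a weaker demand, were 909 to 1137 lower and 964 to 1168 higher. The median distance to a TSS moved to 19.4 kb with protein-coding TSSs only, a setting in which distal regions with β-catenin were not compared. Median GC content was 54.0% in 200 bp windows, 50.7% in 1000 bp windows and 52.3% over whole regions. The smaller share of TCF/LEF words in members than in distal regions with β-catenin held in the 5 alternatives. The SOX difference turned to -0.10 points in 200 bp windows and to -3.32 points over whole regions, and the difference for the E-box CAGCTG turned to -1.82 points in 1000 bp windows, -4.62 points over whole regions and -0.70 points centred on the region middle. The ETS difference was 0.83 points, with an interval that includes 0, in 200 bp windows. The 2 replicates per condition limit each comparison of C59 with DMSO, and regions that lost their peak after C59 are outside the selection.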
